A study of Mus musculus with 10 samples.

Results

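Stromal and osteoblast matrix genes are the genes through which the connective tissue cells of marrow and the bone-forming cells build, cross-link and organise extracellular matrix. They were taken from a list of 45 symbols, and each gene was read from the probe set that carries its symbol alone, with the highest mean where there was a choice. By that rule 43 of the 45 were measured among 19938 genes, on 17 chromosomes and with a single probe set each, while Fbn1 and Spp1 are not analysed here. They were described as 10 collagens, 9 glycoproteins and elastic fibre genes, 7 small leucine-rich proteoglycans, 2 cross-linking enzymes, 5 osteoblast and mineralization genes, 4 secreted regulators, 4 receptors and adhesion proteins and 2 contractile markers.

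The matrix of bone and marrow stroma is laid down mainly as fibrils of type I collagen, on whose surface smaller collagens, glycoproteins and proteoglycans set the spacing and width of the fibrils. Lysyl oxidases then link the fibrils to each other, and in bone the osteoblast lineage, under transcription factors such as Sp7, makes the alkaline phosphatase and the acidic proteins needed for mineral. In a plate of whole marrow the mesenchymal cells that make this matrix are a minority that adheres and spreads beside blood cells of many lineages.

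The samples were marrow cells from the long bones of Swiss male mice aged 4 to 6 weeks, seeded in αMEM medium containing 10% fetal calf serum. Every culture also received calcitriol, the hormone form of vitamin D. Treated wells had recombinant mouse adiponectin, a hormone of fat cells, at 5 µg/ml, and control wells had vehicle. There was 1 adiponectin culture and 1 control culture at each of 4, 10, 24, 72 and 120 h, 10 arrays in all. Whether different cultures used different mice is not in the labels, and the p-values are therefore set by the scatter among these 10 cultures, which could be technical. Because the study's title concerns lipopolysaccharide in the preparation, adiponectin and whatever else the preparation carried cannot be told apart here.

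Values are log2 intensities, so 1 unit is a doubling of signal, and 5 values in a row always stand for 4, 10, 24, 72 and 120 h. Array medians over all genes lay between 8.27 and 8.48, the lowest being the 10 h control array. The 8 general leukocyte genes examined had medians of 12.79 to 13.06 on the 10 arrays, so blood cell transcripts were plentiful in every culture. Of the osteoblast genes, Ibsp, Phex and Dmp1, products of mineralizing osteoblasts and osteocytes, lay below the array median on all 10 arrays. Probe sets differ in brightness, so this does not show that they were absent, and Col11a1, Lum, Omd and Aspn lay below it on all 10 too.

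Most of the matrix genes rose with time in culture. With both arms fitted together on log2 hours (limma, Benjamini-Hochberg adjusted p under 0.05 over all genes), 30 of 43 rose, or 69.8%, against 9.81% of all genes. Thbs1 and Lum fell, 4.65% of the members against 8.67% of all genes. The median slope of the 43 was 0.19 log2 units per doubling of time, and that of all genes was 0.0095. The 43 were chosen with earlier results of these data known, so their excess over all genes is not an independent test. In this bulk RNA, more mesenchymal cells, more RNA from each of them and a fall in other cells cannot be told apart. Of the 30 that rose, 18 kept their call in every alternative analysis that tested them, Col1a2, Col5a2, Col12a1, Sparc, Fbln2, Thbs2, Bgn, Fmod, Ogn, Omd, Lox, Alpl, Sfrp1, Igfbp5, Serpinf1, Pdgfra, Pdgfrb and Cdh11. When the 2 arrays of each time were first averaged into 1 value, 20 were called as rising, beside 985 of all 19938 genes.

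**Figure D1:**
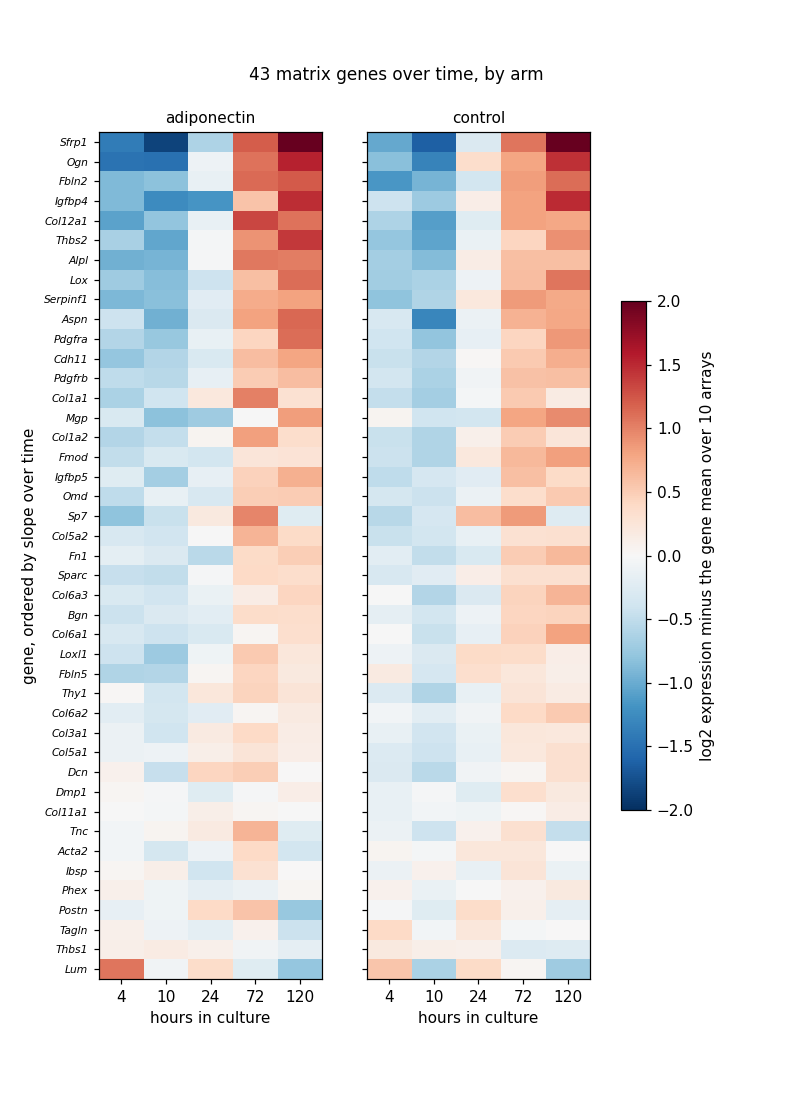
Level of each of the 43 matrix genes on each of the 10 arrays, as log2 intensity minus the gene's own mean over the arrays, with adiponectin arrays in the left panel and control arrays in the right, hours along each, and genes ordered by their slope over time. Sfrp1 and Ogn, at the steep end, go from well below to well above their means in both panels, while Lum, at the other end, does the opposite.

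Of the 10 collagen genes, 9 rose with time, and Col11a1 did not pass the test (adjusted p = 0.344). Col1a1 and Col1a2 encode the chains of type I collagen, the main protein of bone. Col1a1 measured 10.95, 11.17, 11.78, 12.58 and 11.88 in adiponectin cultures, against 11.11, 10.90, 11.54, 12.10 and 11.74 in control cultures. Its highest values were those at 72 h in both arms, and at 120 h both had come down, so the late and early arrays overlapped. The slope was 0.24 ± 0.047 per doubling of time (SE, 10 arrays, adjusted p = 0.00382), and it missed the threshold on the averaged pairs (adjusted p = 0.0551). Col1a2 measured 10.47, 10.57, 11.11, 11.87 and 11.40 in adiponectin cultures, against 10.61, 10.44, 11.15, 11.55 and 11.30 in control cultures. It had the same shape, with the 72 h arrays on top, but all 4 arrays at 72 and 120 h lay above all 6 earlier ones, and its slope was 0.23 ± 0.040 (adjusted p = 0.00173).

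The 250 bases before the start of Col1a2 are shown because type I collagen is the fibril that the other members organise and this chain has a promoter entry. They lie on the plus strand at chr6:4505368-4505617 of GRCm38.p6, and capitals mark GGGCGG, the GC box.
Col1a2: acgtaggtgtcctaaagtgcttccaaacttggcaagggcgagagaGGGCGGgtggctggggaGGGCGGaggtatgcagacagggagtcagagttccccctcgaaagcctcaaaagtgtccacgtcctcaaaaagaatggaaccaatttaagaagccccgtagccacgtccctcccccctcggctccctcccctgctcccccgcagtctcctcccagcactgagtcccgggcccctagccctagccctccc
Col1a2 had the GC box at 205 to 200 and at 188 to 183 bases before the start. The same letters, searched on both strands, were in 9 of the 27 matrix genes with a promoter entry (33.3%) and in 32.9% of all 27025 genes with one. The CArG box, searched by its consensus, was in 0 of 27 and in 1.40% of all genes.

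Col12a1 encodes a collagen that sits on the surface of fibrils rather than forming them, and it had the steepest slope of the collagens. It measured 8.88, 9.16, 9.81, 11.30 and 11.04 in adiponectin cultures, against 9.33, 8.85, 9.72, 10.76 and 10.73 in control cultures. At 120 h it stood 4.47-fold above 4 h in adiponectin cultures and 2.63-fold in control cultures, with a slope over both arms of 0.45 ± 0.057 (adjusted p = 0.0003). The 3 chains of type VI collagen, a network former around cells, rose more gently. Col6a1 measured 9.77, 9.67, 9.78, 10.13 and 10.42 in adiponectin cultures, against 10.08, 9.65, 9.92, 10.54 and 10.90 in control cultures. Each arm was highest at 120 h, and the control culture was above its partner at every time but 10 h. Slopes were 0.17 for Col6a1, 0.12 for Col6a2 and 0.17 for Col6a3, with adjusted p from 0.00937 to 0.0131. Without the 120 h arrays none of these 3 passed (adjusted p = 0.193 to 0.253), and none passed on the averaged pairs (adjusted p = 0.0784 to 0.0864). Col5a2, a partner chain that regulates fibril width, had a slope of 0.19 ± 0.028 (adjusted p = 0.000675). Col5a1 and Col3a1 had shallower slopes, 0.11 and 0.11 (adjusted p = 0.00948 and 0.0311), and both calls were lost without the 72 h or the 120 h arrays. The Col3a1 call was also lost on the averaged pairs (adjusted p = 0.137).

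**Figure D2:**
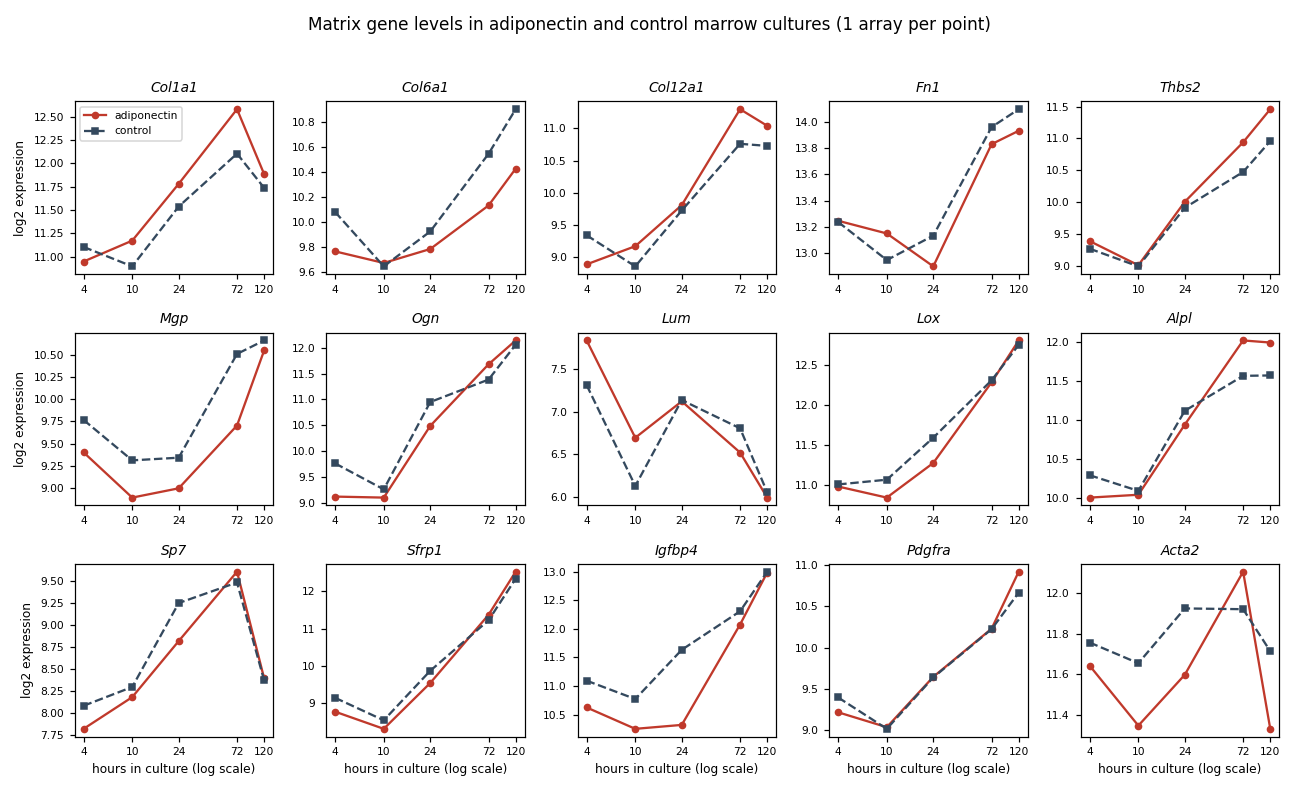
Levels of 15 matrix genes (log2 intensity, each panel with its own y axis) against hours in culture on a log axis, 1 point per array, adiponectin and control cultures as separate lines. Sfrp1, Ogn, Igfbp4 and Col12a1 climb in both lines up to 72 or 120 h, Col1a1 and Sp7 peak at 72 h, Lum declines, and Mgp and Igfbp4 are lower with adiponectin at all 5 times.

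Among the 9 glycoproteins and elastic fibre genes, Fn1, Sparc, Fbln2, Thbs2 and Mgp rose and Thbs1 fell. Fbln2 encodes fibulin-2, which bridges fibronectin and elastic fibres. It measured 9.26, 9.32, 9.999, 11.28 and 11.37 in adiponectin cultures, against 8.99, 9.22, 9.77, 10.98 and 11.27 in control cultures. The 4 arrays at 72 and 120 h all lay above the 6 earlier ones, and the slope of 0.50 ± 0.039 had the lowest adjusted p of the 43 genes (3.48e-05). Thbs2, a thrombospondin made by fibroblasts that restrains vessel growth, measured 9.39, 9.01, 10.003, 10.94 and 11.46 in adiponectin cultures, against 9.27, 8.99, 9.91, 10.47 and 10.96 in control cultures. It stood 4.21-fold above its 4 h level at 120 h in adiponectin cultures and 3.23-fold in control cultures, with a slope of 0.43 ± 0.053 (adjusted p = 0.000274). The related Thbs1, abundant in platelets and also made by other marrow cells, measured 13.53, 13.58, 13.51, 13.35 and 13.24 in adiponectin cultures, against 13.62, 13.53, 13.53, 13.15 and 13.16 in control cultures. All 4 late arrays lay below all 6 early ones, though by little, and the slope was -0.084 ± 0.020 (adjusted p = 0.011). The call was lost on the averaged pairs (adjusted p = 0.0648), without the 72 h arrays (0.0707) and without the 120 h arrays (0.17).

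Fn1, fibronectin, onto which cells assemble much of the other matrix, had values of 12.90 to 14.09 and a slope of 0.19 ± 0.046 (adjusted p = 0.0129). That call was lost on the averaged pairs (adjusted p = 0.104) and without the 10, 72 or 120 h arrays. Sparc, a collagen-binding protein of bone, had a slope of 0.17 ± 0.023 (adjusted p = 0.000395). Mgp, matrix Gla protein, an inhibitor of calcification, measured 9.40, 8.90, 8.999, 9.70 and 10.55 in adiponectin cultures, against 9.77, 9.31, 9.34, 10.51 and 10.66 in control cultures. It dipped at 10 and 24 h before reaching its highest values, its slope was 0.23 ± 0.067 (adjusted p = 0.0283), and 6 of the alternative analyses ended that call. Postn and Tnc, which mark remodelling connective tissue, and the elastic fibre gene Fbln5 did not pass (adjusted p = 0.968, 0.808 and 0.0725). Postn, periostin, measured 7.79, 7.86, 8.34, 8.52 and 7.19 in adiponectin cultures, against 7.92, 7.71, 8.31, 8.05 and 7.77 in control cultures. With adiponectin it was highest at 72 h and lowest at 120 h. Tnc, tenascin C, measured 10.84, 10.95, 11.07, 11.58 and 10.66 in adiponectin cultures, against 10.78, 10.48, 10.98, 11.23 and 10.42 in control cultures. It was highest at 72 h in each arm and lowest at 120 h, and over 4 to 72 h alone its slope was 0.15 (adjusted p = 0.038).

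Of the 7 small leucine-rich proteoglycans, which bind collagen fibrils and limit their width, Bgn, Ogn, Fmod, Omd and Aspn rose, Lum fell and Dcn did not pass (adjusted p = 0.138). Aspn, Omd and Ogn lie in that order on chromosome 13 with no RefSeq protein-coding gene between them, and all 3 rose, as did 69.8% of the members. The neighbours Col3a1 and Col5a2, and Col6a2 and Col6a1, rose too, while the neighbours Dcn and Lum, and Dmp1 and Ibsp, did not. The 250 bases before the start of Aspn, Omd and Ogn are shown, as those of 3 neighbours of this family. They are RefSeq sequences of GRCm38.p6, 5′ to 3′ on the plus strand, at chr13:49544193-49544442 for Aspn, chr13:49582212-49582461 for Omd and chr13:49607765-49608014 for Ogn. Capitals mark TATAAA, in the TATA box pattern, and TGTGGT, the core recognised by RUNX factors, on either strand.
Aspn: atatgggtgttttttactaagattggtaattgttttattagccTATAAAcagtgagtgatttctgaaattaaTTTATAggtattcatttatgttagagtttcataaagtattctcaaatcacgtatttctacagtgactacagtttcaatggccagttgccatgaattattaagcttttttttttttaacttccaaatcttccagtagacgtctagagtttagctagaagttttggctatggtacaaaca
Omd: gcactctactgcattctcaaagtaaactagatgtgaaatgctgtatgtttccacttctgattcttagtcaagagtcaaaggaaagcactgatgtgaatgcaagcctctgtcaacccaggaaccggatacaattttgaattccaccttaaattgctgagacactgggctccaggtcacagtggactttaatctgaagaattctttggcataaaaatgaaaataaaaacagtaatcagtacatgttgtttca
Ogn: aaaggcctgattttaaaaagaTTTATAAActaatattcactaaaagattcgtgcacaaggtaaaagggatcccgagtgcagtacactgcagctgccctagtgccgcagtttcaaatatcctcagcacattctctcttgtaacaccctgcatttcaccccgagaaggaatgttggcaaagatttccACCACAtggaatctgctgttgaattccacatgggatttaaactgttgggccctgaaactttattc
Aspn had TATAAA at 207 to 202 bases before the start and, on the other strand, at 178 to 173. Ogn had it on the opposite strand at 229 to 224 and on its own strand at 227 to 222, so that the 2 matches overlap, and TGTGGT on the opposite strand at 65 to 60. The Omd stretch held none of the motifs searched. Matches of this kind are descriptions of letters: TATAAA was found in 7 of the 27 matrix genes with an entry (25.9%) and in 13.0% of all genes with one, and TGTGGT in 2 of 27 (7.41%) and in 14.2%.

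Ogn, osteoglycin, measured 9.12, 9.10, 10.49, 11.68 and 12.14 in adiponectin cultures, against 9.76, 9.26, 10.95, 11.39 and 12.06 in control cultures. It was 8.12-fold above 4 h at 120 h in adiponectin cultures and 4.91-fold in control cultures, and its slope was 0.60 ± 0.065 (adjusted p = 0.000132). Aspn, asporin, a relative of decorin that lacks most of its sugar chain sites, measured 6.59, 6.03, 6.70, 7.80 and 8.14 in adiponectin cultures, against 6.67, 5.69, 6.88, 7.69 and 7.77 in control cultures. Both arms were lowest at 10 h and highest at 120 h, with a slope of 0.36 ± 0.071 (adjusted p = 0.00422), lost on the averaged pairs and without the 120 h arrays. Omd, osteomodulin, an osteoblast product that binds collagen, measured 5.48, 5.86, 5.68, 6.49 and 6.50 in adiponectin cultures, against 5.65, 5.57, 5.88, 6.35 and 6.53 in control cultures. Its late arrays were all above its early ones, and its slope was 0.21 ± 0.029 (adjusted p = 0.000523).

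Bgn, biglycan, the most widely made of the bone proteoglycans, had values of 12.87 to 13.74 and a slope of 0.17 ± 0.026 (adjusted p = 0.000947). Fmod, fibromodulin, which guides collagen cross-linking, measured 7.68, 7.86, 7.80, 8.41 and 8.44 in adiponectin cultures, against 7.74, 7.56, 8.37, 8.82 and 8.98 in control cultures. The control culture was the higher at every time but 10 h, and the gene had a slope of 0.23 ± 0.036 (adjusted p = 0.000919). Lum and Dcn are neighbours on chromosome 10 and were the exceptions. Lum, lumican, measured 7.84, 6.69, 7.12, 6.52 and 5.99 in adiponectin cultures, against 7.31, 6.13, 7.14, 6.80 and 6.05 in control cultures. The 4 h arrays were the highest of each arm and the 120 h arrays the lowest, with a slope of -0.22 ± 0.068 (adjusted p = 0.0444). That call was lost in 7 of the alternative analyses, among them the fit without the 4 h arrays (adjusted p = 0.502). Dcn, decorin, which also binds TGF-beta, measured 10.47, 9.93, 10.82, 10.88 and 10.40 in adiponectin cultures, against 10.11, 9.85, 10.33, 10.42 and 10.71 in control cultures. Both arms were lowest at 10 h, and the adiponectin arm was highest at 72 h where the control arm was highest at 120 h.

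The cross-linking enzymes Lox and Loxl1 both rose. Lox, lysyl oxidase, measured 10.98, 10.84, 11.27, 12.29 and 12.81 in adiponectin cultures, against 11.002, 11.06, 11.59, 12.31 and 12.76 in control cultures. The late arrays were all above the early ones, and the slope was 0.39 ± 0.042 (adjusted p = 0.00013). Loxl1, the lysyl oxidase most tied to elastic fibres, measured 9.81, 9.51, 10.14, 10.75 and 10.45 in adiponectin cultures, against 10.13, 9.94, 10.62, 10.59 and 10.36 in control cultures. It peaked at 72 h with adiponectin and at 24 h in control, and had a shallower slope than Lox, 0.15 ± 0.042 (adjusted p = 0.0274), and 5 of the alternative analyses ended that call.

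Of the 5 osteoblast and mineralization genes, Alpl rose and the other 4 were not called. Alpl, the tissue-nonspecific alkaline phosphatase that frees phosphate for mineral, measured 10.002, 10.04, 10.94, 12.02 and 11.99 in adiponectin cultures, against 10.29, 10.09, 11.11, 11.56 and 11.57 in control cultures. The late arrays stood above all the early ones. The 120 h level was 3.96-fold that of 4 h in adiponectin cultures and 2.43-fold in control cultures, with a slope of 0.40 ± 0.047 (adjusted p = 0.000205). Sp7, osterix, the transcription factor that commits cells to the osteoblast fate, measured 7.82, 8.18, 8.82, 9.61 and 8.39 in adiponectin cultures, against 8.08, 8.29, 9.25, 9.49 and 8.37 in control cultures. Each value up to 72 h was above the one before it in both arms, and at 120 h Sp7 was more than 1 unit lower in both, so over the 5 times it was not called (adjusted p = 0.12), whereas over 4 to 72 h its slope was 0.40 (adjusted p = 0.00141). Ibsp, bone sialoprotein, lay between 6.30 and 6.99 (adjusted p = 0.825), Phex, an endopeptidase of osteocytes that controls phosphate, between 5.61 and 5.98 (adjusted p = 0.888), and Dmp1, an acidic matrix protein of osteocytes, between 6.62 and 7.19 (adjusted p = 0.285). Dmp1 and Ibsp are neighbours on chromosome 5.

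All 4 secreted regulators rose, and Sfrp1 had the steepest slope of the 43 genes. Sfrp1, a soluble inhibitor that binds Wnt ligands, measured 8.76, 8.30, 9.53, 11.37 and 12.53 in adiponectin cultures, against 9.13, 8.53, 9.86, 11.22 and 12.34 in control cultures. It was 13.6-fold above 4 h at 120 h in adiponectin cultures and 9.23-fold in control cultures, with a slope of 0.77 ± 0.096 (adjusted p = 0.000292). Igfbp4, which binds insulin-like growth factors and keeps them from their receptor, measured 10.62, 10.25, 10.32, 12.07 and 12.98 in adiponectin cultures, against 11.09, 10.77, 11.63, 12.31 and 12.997 in control cultures. The adiponectin arm stayed low up to 24 h and then rose steeply, while the control arm was already up at 24 h, and the slope over both was 0.46 ± 0.079 (adjusted p = 0.00178), lost without the 120 h arrays (adjusted p = 0.0551). Serpinf1, an inhibitor of vessel growth needed for normal bone mineral, measured 10.04, 10.09, 10.71, 11.68 and 11.73 in adiponectin cultures, against 10.13, 10.33, 11.14, 11.79 and 11.69 in control cultures. Its values at 72 and 120 h were close in both arms, and it had a slope of 0.38 ± 0.033 (adjusted p = 4.63e-05). Igfbp5, the main such binding protein stored in bone matrix, had a slope of 0.23 ± 0.039 (adjusted p = 0.00147).

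The 4 receptors and adhesion proteins, which are used to recognise mesenchymal cells, rose as well. Pdgfra, a receptor for platelet-derived growth factor, measured 9.22, 9.04, 9.65, 10.23 and 10.92 in adiponectin cultures, against 9.40, 9.02, 9.64, 10.23 and 10.67 in control cultures. Its values were lowest at 10 h and highest at 120 h in both arms, with a slope of 0.32 ± 0.046 (adjusted p = 0.000609). Cdh11, the cadherin of osteoblasts and mesenchymal cells, measured 11.20, 11.39, 11.66, 12.58 and 12.76 in adiponectin cultures, against 11.52, 11.38, 12.000, 12.49 and 12.70 in control cultures. Its late arrays were all above its early ones. Slopes were 0.31 for Cdh11 (adjusted p = 0.000111) and 0.26 for Pdgfrb, the other receptor of that pair (adjusted p = 0.000322). Thy1, a surface glycoprotein of stromal cells that T cells carry too, had a slope of 0.12 (adjusted p = 0.029), and its late and early arrays overlapped. Thy1 measured 8.50, 8.11, 8.71, 8.92 and 8.74 in adiponectin cultures, against 8.21, 7.88, 8.32, 8.74 and 8.64 in control cultures. It was lowest at 10 h in each arm, and its call was lost on the averaged pairs and without the 72 h or 120 h arrays.

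Neither contractile marker passed. Acta2, smooth muscle actin, measured 11.64, 11.35, 11.60, 12.10 and 11.33 in adiponectin cultures, against 11.76, 11.65, 11.92, 11.92 and 11.71 in control cultures. The adiponectin arm was highest at 72 h and below its partner at the other times, and there was no called slope (adjusted p = 0.793). Tagln, transgelin, lay between 8.83 and 9.66 (adjusted p = 0.178).

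Set side by side without a model, the 4 arrays at 72 and 120 h lay above all 6 earlier arrays for 25 of the 43 genes, or 58.1%, against 7.35% of all genes. They lay below them for Thbs1 alone, 2.33% of the members against 7.50% of all genes, and overlapped for 17. The value at 120 h was below that at 72 h in both arms for 14 of the 43 genes, or 32.6%, a share near the 27.2% of all genes. Adiponectin cultures had their highest value at 120 h for 20 genes and at 72 h for 18, and control cultures at 120 h for 24 and at 72 h for 12. These peak times were not counted over all genes, so whether they are particular to the matrix genes was not tested.

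Slopes were also fitted for each arm within 1 model. In adiponectin cultures 20 genes rose, or 46.5%, against 4.15% of all genes, and 0 fell, against 3.46% of all genes. At an unadjusted p under 0.05 in limma, 29 of the 43 were up and 2 down, beside 2192 and 1899 of all 19938 genes. In control cultures 19 rose, or 44.2%, against 4.64% of all genes, and Thbs1 fell, 2.33% against 4.45% of all genes. The unadjusted counts in that arm were 30 up and 1 down, beside 3242 and 2017 of all 19938 genes. The rise was called in both arms for 16 genes, in adiponectin cultures alone for Col1a1, Col1a2, Fbln5 and Igfbp4, and in control cultures alone for Col5a1, Col6a2 and Fmod. Most calls were lost when the arrays of a late time were left out, as were most calls over all genes, although all slopes of the called genes stayed positive. Without the 72 h arrays, 3 of the 20 calls were kept in adiponectin cultures (Alpl, Fbln2 and Serpinf1) and 1 of the 19 in control cultures (Fbln2). Without the 120 h arrays 0 were kept in either arm, and Sp7 was newly called in adiponectin cultures. The median slope of the 20 genes in adiponectin cultures was 0.35 with all times, 0.34 without 72 h and 0.33 without 120 h, and that of the 19 in control cultures was 0.29, 0.29 and 0.26. Without the 10 h arrays the control count was 12.

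The limma test of the difference between the arms' slopes called 0 genes among the 43 and 0% of all genes. At an unadjusted p under 0.05 it gave 7 of the 43 matrix genes steeper with adiponectin and 2 shallower, against 620 and 1339 of all 19938 genes. Fbln5 had the lowest unadjusted p of the 43. It measured 9.29, 9.30, 9.92, 10.31 and 10.07 in adiponectin cultures, against 10.06, 9.55, 10.22, 10.11 and 9.998 in control cultures. The adiponectin arm started lower and ended close to control, and the slopes were 0.21 ± 0.053 in adiponectin cultures and 0.037 ± 0.053 in control cultures, a difference of 0.17 ± 0.043 (adjusted p = 0.438). Alpl, Ogn and Col12a1 had slope differences of 0.15, 0.16 and 0.15 (adjusted p = 0.495, 0.499 and 0.499), being lower with adiponectin at 4 h and higher at 72 and 120 h. Lum and Fmod went the other way, with -0.17 and -0.13 (adjusted p = 0.495 and 0.501).

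**Figure D3:**
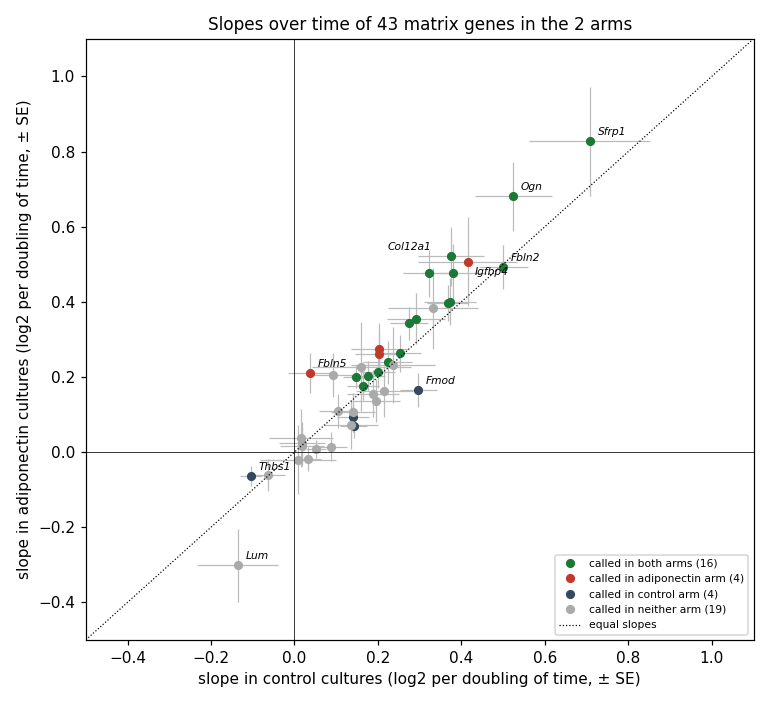
Slope over time in adiponectin cultures (y axis) against control cultures (x axis), in log2 units per doubling of hours, 1 point per matrix gene with its SE in each direction, coloured by the arm in which the slope was called. The 16 genes called in both arms lie along the diagonal up to Sfrp1, at 0.83 in adiponectin and 0.71 in control cultures.

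Adiponectin against control, averaged over the 5 times, called none of the 43 genes in limma with time as a block, 0 higher against 2.05% of all genes and 0 lower against 0.371%. At an unadjusted p under 0.05, 4 of the 43 were higher and 5 lower, against 1178 and 840 of all 19938 genes. The median difference of the 43 was -0.048 and that of all genes 0.014. A miss does not show that the arms were alike: the 95% intervals of the 43 differences had half-widths of 0.157 to 0.332 and reached as far as -0.84 and 0.47, and 34 of them included 0.

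Mgp came closest. Its differences were -0.36, -0.42, -0.34, -0.80 and -0.11, with a mean of -0.41 ± 0.25 (SD, n = 5 pairs), a 95% interval of -0.62 to -0.20 and an adjusted p of 0.0566 in limma. The adiponectin culture was the lower at every time, most of all at 72 h, and over 13 alternative analyses the adjusted p ran from 0.0378 to 1, with 4 of the 13 under the threshold. Igfbp4 had differences of -0.47, -0.52, -1.31, -0.23 and -0.015, with a mean of -0.51 ± 0.49 (SD, n = 5 pairs; 95% interval -0.84 to -0.18, limma adjusted p = 0.153). All 5 were negative, and the one at 24 h, where adiponectin cultures had 10.32 and control cultures 11.63, was the only difference of 2-fold or more among the 43 genes and 5 times. Col6a2 differed by -0.16, -0.14, -0.15, -0.37 and -0.35, a mean of -0.24 ± 0.11 (SD, n = 5 pairs; 95% interval -0.40 to -0.072, limma adjusted p = 0.195). Mgp, Igfbp4 and Col6a2 were thus the genes lower in 5 of 5 pairs, 6.98% of the members against 4.40% of all genes. Col6a1, the neighbour of Col6a2 on chromosome 10, was lower in 4 of 5 pairs, with a mean of -0.26 ± 0.21 (limma adjusted p = 0.239).

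Higher in 5 of 5 pairs were Fbln2, Thbs2, Tnc and Thy1, 9.30% of the members against 6.32% of all genes. Thy1 differed by 0.29, 0.23, 0.39, 0.18 and 0.093, with a mean of 0.24 ± 0.11 (SD, n = 5 pairs; 95% interval 0.074 to 0.40, limma adjusted p = 0.188). Tnc differed by 0.060, 0.47, 0.095, 0.35 and 0.24, with a mean of 0.24 ± 0.17 (95% interval 0.062 to 0.42, limma adjusted p = 0.249). Thbs2 differed by 0.12, 0.017, 0.094, 0.47 and 0.50, and Fbln2 by 0.27, 0.10, 0.23, 0.30 and 0.10 (limma adjusted p = 0.345 and 0.3). None of the 4 was as much as 1.5-fold higher at any time. Type I collagen had mean differences of 0.20 ± 0.23 for Col1a1 and 0.072 ± 0.18 for Col1a2 (SD, n = 5 pairs; 95% intervals -0.0064 to 0.40 and -0.11 to 0.25).

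At single times, with 1 culture per arm, differences have no replicate check. The median difference of the 43 genes was -0.13 at 4 h, 0.020 at 10 h, -0.14 at 24 h, 0.10 at 72 h and 0.026 at 120 h, beside all-gene medians of 0.040, 0.072, 0.012, -0.010 and -0.031. Accordingly 15, 25, 15, 28 and 24 of the 43 were higher with adiponectin at those times. Of all genes, 56.9%, 64.6%, 51.9%, 47% and 43.5% were higher. With each array centred on its own median the 10 h value became -0.12, the 10 h control array being the one with the lowest median. The extremes were Fbln5 at -0.77 and Lum at 0.53 at 4 h, Igfbp4 at -0.52 and Lum at 0.57 at 10 h, Igfbp4 at -1.31 and Dcn at 0.49 at 24 h, Mgp at -0.80 and Col12a1 at 0.54 at 72 h, and Postn at -0.58 and Thbs2 at 0.50 at 120 h. A 2-fold lower value was found for Igfbp4 at 24 h, 1 of 43 genes or 2.33%, against 0.226% of all genes at that time, and for 0 at the other times, against 0.120% at 4 h, 0.130% at 10 h, 0.155% at 72 h and 0.0301% at 120 h. No member was 2-fold higher at any time, against 0.727%, 0.893%, 0.853%, 0.547% and 0.752% of all genes.

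**Figure D4:**
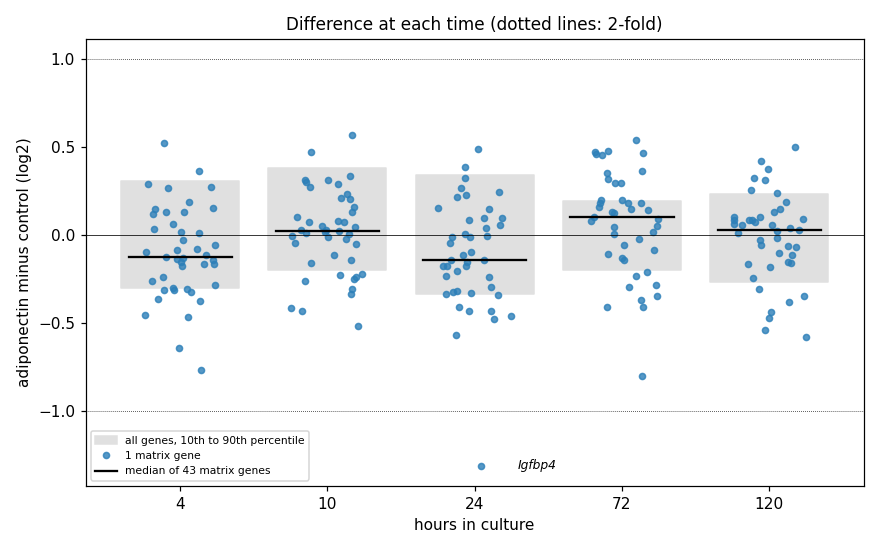
Difference between the adiponectin and the control culture of each time (log2 units, y axis) for the 43 matrix genes at 4, 10, 24, 72 and 120 h, 1 point per gene. The grey band spans the lower to the upper decile of all genes and dotted lines mark 2-fold. The points straddle 0 at every time, and Igfbp4 at 24 h is the only one beyond a dotted line.

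Genes that act beside these were counted from lists that are not part of the 43, to be read against the 9.81% of all genes that rose with time and the 8.67% that fell. These lists, and those of cell type markers below, were also chosen with earlier results of these data known. Of 23 collagen maturation genes, 12 rose with time and 0 fell, with a median slope of 0.11 against 0.0095 for all genes. The steepest were Pcolce, which enhances removal of the collagen propeptide, at 0.41 (adjusted p = 0.000154), Plod2, a lysyl hydroxylase for cross-links, at 0.40 (adjusted p = 9.3e-05), and the prolyl hydroxylases P4ha3 and P4ha2 at 0.31 (adjusted p = 0.00293) and 0.24 (adjusted p = 0.00128). Among 16 other collagens 4 rose and 0 fell, Col10a1, Col4a2, Col4a1 and Col24a1, with slopes of 0.07 to 0.18. Among 23 other matrix proteins 12 rose and 1 fell, led by Efemp1, a fibulin, at 0.75 (adjusted p = 0.00101), and the basement membrane genes Nid1 at 0.51 (adjusted p = 0.000123), Hspg2 at 0.42 (adjusted p = 0.000333) and Lamb1 at 0.35 (adjusted p = 0.00013).

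In the TGF-beta and BMP pathway, which drives matrix synthesis, 10 of 26 genes rose with time and 6 fell. The shares of all genes were again 9.81% and 8.67%. Grem1, an antagonist of BMPs, rose at 0.48 (adjusted p = 0.000108), Ltbp2, a microfibril protein, at 0.48 (adjusted p = 0.000344) and the co-receptor Tgfbr3 at 0.34 (adjusted p = 0.00483), while Inhba, the activin subunit, fell at -0.45 (adjusted p = 0.000167). Of 15 osteoblast regulators and late genes, 7 rose with time and 1 fell. Wif1, a Wnt inhibitor, rose at 0.60 (adjusted p = 0.000211), Ank, a pyrophosphate transporter, at 0.30 (adjusted p = 0.00465), and the homeobox genes Dlx5 and Msx2 at 0.23 (adjusted p = 0.00135) and 0.17 (adjusted p = 0.00268). Of 12 contractile genes 3 rose and 0 fell, Cald1, Tpm2 and Tpm1, with slopes of 0.095 to 0.23.

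Markers of other cell types changed over the same hours, again beside 9.81% of all genes rising and 8.67% falling. All 12 neutrophil markers fell with time, as did 7 of 11 B lineage markers, 7 of 8 megakaryocyte markers and 4 of 6 erythroid markers, while 9 of 10 osteoclast markers rose and 1 fell. Of 11 macrophage markers 5 rose and 0 fell, of 12 endothelial markers 0 rose and 4 fell, and of 9 adipocyte markers 1 rose and 0 fell. Stromal niche markers, which share cells with the matrix genes, rose for 5 of 10 and fell for 0. At 120 h the median change from 4 h was 0.76 for the matrix genes in adiponectin cultures and 0.68 in control cultures. For neutrophil markers it was -3.08 and -3.79, for megakaryocyte markers -3.09 and -3.09, and for osteoclast markers 1.54 and 1.91, each time in adiponectin and then in control cultures. Summed over the list, neutrophil markers spanned 13.80 to 16.51 on the log2 scale in adiponectin cultures and 13.80 to 16.79 in control cultures, and the 43 matrix genes 16.05 to 17.02 and 16.06 to 17.001. B lineage markers spanned 12.99 to 14.48 and 12.90 to 14.53, megakaryocyte markers 13.44 to 15.41 and 13.44 to 15.61, and osteoclast markers 14.56 to 15.75 and 14.55 to 16.12, in the same order of arms. The part of these shifts in the rise of the matrix genes was not tested.

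In the comparison of arms, 7 genes of these lists were called, beside 2.05% of all genes higher and 0.371% lower. Higher with adiponectin were P4ha1, a prolyl hydroxylase for collagen, by 0.40 (adjusted p = 0.0112), Skil, a repressor of SMAD signalling, by 0.44 (adjusted p = 0.0133), Siglec1, a macrophage surface lectin, by 0.87 (adjusted p = 0.00223), and Kdr, a receptor of endothelial cells, by 0.66 (adjusted p = 0.0116). Lower were Gas6, a ligand made by stromal cells, at -0.89 (adjusted p = 0.0279), Atp6v0d2, a proton pump subunit of osteoclasts, at -0.91 (adjusted p = 0.00346), and Pparg, the regulator of fat cell formation, at -0.53 (adjusted p = 0.0475). Each of the 7 was 1 call in its list, of 23 collagen maturation genes, 26 pathway genes, 11 macrophage, 12 endothelial, 10 stromal niche, 10 osteoclast and 9 adipocyte markers. The other 9 lists had 0 calls in limma. They held 16 other collagens, 23 other matrix proteins, 15 osteoblast regulators and late genes and 12 contractile genes. The rest were 12 neutrophil, 6 erythroid, 11 B lineage and 8 megakaryocyte markers and 8 leukocyte genes. Of the genes in these 9 lists, 3 were higher and 17 lower at an unadjusted p under 0.05 in limma. Over all 19938 genes those unadjusted counts were 1178 and 840. All 10 osteoclast markers had a negative mean difference, beside 8746 of the 19938 genes. The 10 markers had a median of -0.33, and at 72 h their median difference was -1.12, where that of the matrix genes was 0.10. The part of these differences in the matrix gene values was not tested.

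**Figure D5:**
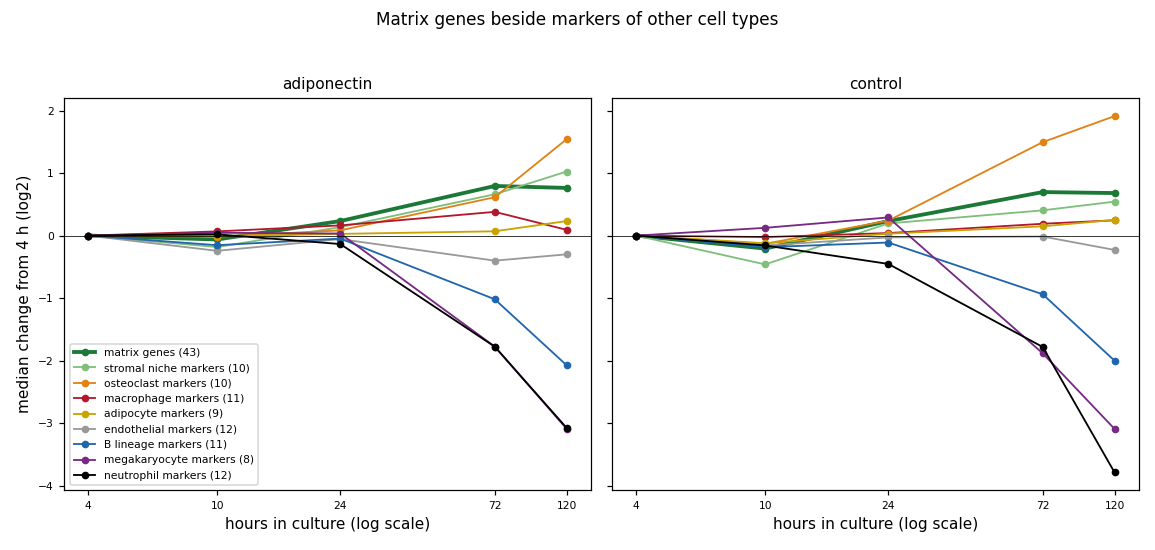
Median change from the 4 h array of the same arm (log2 units) against hours, for the 43 matrix genes and 8 lists of cell type markers, with adiponectin cultures in the left panel and control cultures in the right. Matrix genes reach 0.76 and 0.68 at 120 h, osteoclast markers go higher, and neutrophil and megakaryocyte markers drop to about -3 or below in both panels.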

How the data were processed

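The deposited values are log2 intensities, 1 per probe set and array, of 10 Affymetrix whole-transcript mouse arrays. RMA, Affymetrix Expression Console and Partek are named, per the submitters' processing notes, with no version or order of steps. RMA's quantile step brings arrays to nearly 1 distribution and so removes most of any change common to the bulk of transcripts. RNA was extracted with RNeasy columns and 100 ng was amplified, per the labels' protocols.

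Of 35556 probe sets, 21789 carried 1 gene symbol in the platform annotation, 1621 several and 12146 none, and only the first kind was used. Against RefSeq (GRCm38.p6), matched on Entrez ID, 91 of these probe sets were not found and 0 symbols changed. The highest-mean probe set of each symbol gave 19938 genes.

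Models were fitted over all genes in limma 3.58.1 (R 4.3.3), with Benjamini-Hochberg adjusted p under 0.05 as a call, and tested on simulated data. The adiponectin effect had time as a block (4 residual degrees of freedom), time in culture had arm and log2 hours (7), slopes by arm were nested (6), and the difference of slopes had time as a block with treatment by log2 hours (3). Alternatives were other normalization, filters, priors, designs and leaving out each time. The time pairs come from the labels, 1 culture of each arm per time.

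The 43 genes and the lists were chosen with earlier results of these data known. Any of the 43 could be named, and of each list at most the 4 with the largest estimate among those called. The number of arrays limits the precision.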

Additional observations from a re-analysis of the deposited data

How the results depend on the processing

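No gene's call turned to the opposite direction in any alternative run. For the adiponectin effect, 546 of 550 gene values kept their side of the threshold, and the 4 others were Mgp, giving 1 gene lower in place of 0 with arrays centred on their medians (adjusted p = 0.0464), with an intensity trend and robust prior (0.0378) and with genes above the median level alone (0.0473). Leaving out each time gave 0 to 1, the 1 being without 120 h. For time in both arms the count of genes that rose ran from 20, on the means of the 2 arrays of each time, to 31, and 22 to 30 when each time was left out. The count that fell, 2, became 1 with the trend and robust prior, with genes above the median level, with all probe sets and with 72 and 120 h set against 4 to 24 h, and 0 on the means of each time. It was 0 to 2 when each time was left out. Genes that rose in adiponectin cultures numbered 1 to 21 when each time was left out, and genes that fell 0 to 1. In control cultures the count that rose was 8 with all probe sets and 0 to 24 when each time was left out. The count that fell there was 0 with all probe sets and with the arm fitted alone, and 0 to 1 when each time was left out. The median of the 43 genes at 10 h became -0.12 with arrays centred, while the all-gene median at 10 h moved to -0.065. Fits without each time's 2 arrays have fewer samples. With genes above the median level alone, Lum was left out, its mean level being at the 18.7th percentile of genes. The cause of the other changes was not tested.

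Over all genes, the adiponectin effect gave 408 higher and 74 lower. It gave 146 and 4 with no replicate block, 113 lower with arrays quantile-normalized again and 117 lower with the trend and robust prior. With all 35556 probe sets tested, 313 probe sets were higher and 14 lower, a count of probe sets and not of genes. Time in both arms gave 1956 and 1728, against 985 and 974 on the means of each time and 674 and 650 without 120 h. Without 120 h the adiponectin arm gave 23 and 15 in place of 827 and 689, and the control arm 5 and 17 in place of 925 and 888. With 1 culture per arm and time, the precision is set by the number of arrays.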
